A study of Sus scrofa with 6 samples.

Results

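The miR-23/27/24 microRNAs (miRNAs) are the products of a pair of paralogous gene clusters. They were picked here by a rule on names: pig entries of the deposited table named miR-23a, miR-23b, miR-27a, miR-27b or miR-24, with any copy number and arm. Earlier results of these data were known when this choice was made. The rule found 8 of the 1645 entries, and all 8 passed the filter for testing (a level of 1 TPM or more in 3 or more libraries), as did 433 entries in all. The data were small RNA libraries of immature Sertoli cells, which support the developing germ cells in the testis, from pigs at 80 to 90 days of gestation. AA2P is L-ascorbic acid 2-phosphate, a stable form of vitamin C given as its hydrated sesquimagnesium salt. All cells were cultured in medium with 10% serum. In the AA2P group, after 6 h in culture, 250 µM of AA2P was added (3 libraries), while the control group had no treatment (3 libraries). The length of the treatment is not given in the sources used here. Nothing in the labels says that libraries of a group came from separate animals or cultures, so p-values measure the spread between these libraries only, which may be technical.

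Each cluster is transcribed as a common precursor that is cut into 3 hairpins, and each hairpin can yield a miRNA from its 5′ arm (5p) and its 3′ arm (3p). miR-23a and miR-23b share a seed, the stretch near the 5′ end that pairs with targets, as do miR-27a and miR-27b, and the gene copies of miR-24 give the same 3p miRNA. In human and mouse cells miR-27 is known to repress PPARG, FOXO1 and the growth factor signalling inhibitor SPRY2, and both clusters act in blood vessel growth. In the RefSeq table of the pig assembly Sscrofa11.1, MIR23A, MIR27A and MIR24-1 are neighbours, with ZSWIM4 the next gene on one side. MIR24-2, MIR27B and MIR23B are neighbours inside the protein-coding gene C10H9orf3. The pig copy numbers of miR-24 are the reverse of the human ones, where MIR24-2 lies beside MIR23A. The products of the MIR23A cluster are therefore taken to be miR-23a, miR-27a and miR-24-1-5p, those of the MIR23B cluster miR-23b, miR-27b-3p, miR-27b-5p and miR-24-2-5p, and miR-24-3p can come from both.

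The libraries held 25.8 to 36.0 Mreads (counted reads, M for mega), as the smallest step between the deposited values shows, so that 3 reads, the limit that a count of 0 allows, stand for 0.0834 to 0.116 TPM. TPM here are reads scaled to a common total per library with no length term seen, so levels of different miRNAs compare read numbers. miR-21-5p took 41.1% ± 3.70 of the TPM in AA2P libraries and 52.1% ± 0.876 in control libraries (SD, n = 3 each), and over the 433 tested entries the log2 fold change had a median of 0.25. Of the gonadal somatic miRNAs, miR-140-3p stood at 1178 ± 69.9 TPM in AA2P libraries and 1106 ± 61.5 TPM in control libraries, while miR-202-5p stood at 0.517 ± 0.142 TPM in AA2P libraries and 0.657 ± 0.316 TPM in control libraries. From the same list miR-132 stood at 4.4 ± 0.866 TPM in AA2P libraries and 2.36 ± 0.592 TPM in control libraries (limma, adjusted p = 0.0577). For miR-212 the levels were 0.79 ± 0.0755 TPM in AA2P libraries and 0.553 ± 0.292 TPM in control libraries. Sums of 9 blood and endothelial miRNAs were 92.5 to 126 TPM in AA2P libraries and 103 to 117 TPM in control libraries, with miR-126-3p taking most of the sum. None of the 9 was at 0 in every library, but the group means of miR-144 and miR-150, 0.01 to 0.0567 TPM, lay under the level of 3 reads. Of these 9, 4 were tested. Of them miR-142-3p, known from leukocytes, stood at 1.98 ± 0.627 TPM in AA2P libraries and 0.507 ± 0.0802 TPM in control libraries. It reached the filter of 1 TPM in the AA2P libraries alone, so its call as higher (limma, adjusted p = 0.0293) cannot serve as support. Of all tested entries 19.9% were called as higher. miR-486, also tested, went the other way, at 2.34 ± 0.710 TPM in AA2P libraries and 3.76 ± 0.549 TPM in control libraries (limma, adjusted p = 0.118). miR-223, not tested, stood at 1.82 ± 3.10 TPM in AA2P libraries, with an SD above its mean, and at 0.0133 ± 0.0231 TPM in control libraries. Sums of 6 muscle and myoid miRNAs were 219 to 307 TPM in AA2P libraries and 168 to 227 TPM in control libraries, also with none at 0 in every library. Most of this sum was miR-1, at 225 ± 41.4 TPM in AA2P libraries and 153 ± 24.1 TPM in control libraries (limma, adjusted p = 0.0746). Only miR-143-3p had a lower mean with AA2P, at 30.8 ± 8.22 TPM against 34.6 ± 10.7 TPM in control libraries. Of these 6, 4 were tested and 0 passed. Of the germ cell list miR-34c alone was matched, at 213 to 283 TPM in AA2P libraries and 169 to 183 TPM in control libraries, and it passed as higher (limma, adjusted p = 0.0464). The part of these markers in the results below was not tested, and in such bulk samples fewer cells of a type and less RNA per cell cannot be told apart.

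In the deposited TPM, miR-23a over miR-23b and miR-27a over miR-27b-3p were lower in every AA2P library than in every control library. A two-sided exact permutation test gave p = 0.1 for each ratio, the smallest that 3 against 3 libraries allow (adjusted p = 0.2). Under quantile normalization the miR-27 difference was nearly absent, at -0.01 on the log2 scale. As single products, miR-23a fell and miR-27a lay lower in every AA2P library without passing the test. miR-23b, miR-27b-3p and miR-24-2-5p lay higher in every AA2P library, also without passing. For miR-24-1-5p, miR-24-3p and miR-27b-5p the AA2P and control libraries overlapped. The sum of the 8 products was 2.12% ± 0.224 of the TPM in AA2P libraries and 2.10% ± 0.0223 in control libraries (SD, n = 3 each). The groups overlapped (two-sided exact permutation test, p = 1.0). As a share of the TPM without miR-21-5p, the sum differed by -0.77 points, AA2P minus control, and without AA2P replicate 1 the share of all TPM differed by -0.11 points. The 8 entries spanned more than 3 orders of magnitude, and miR-27b-3p was the most abundant, ranking 13 among the 358 known pig miRNAs.

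**Figure D1:**
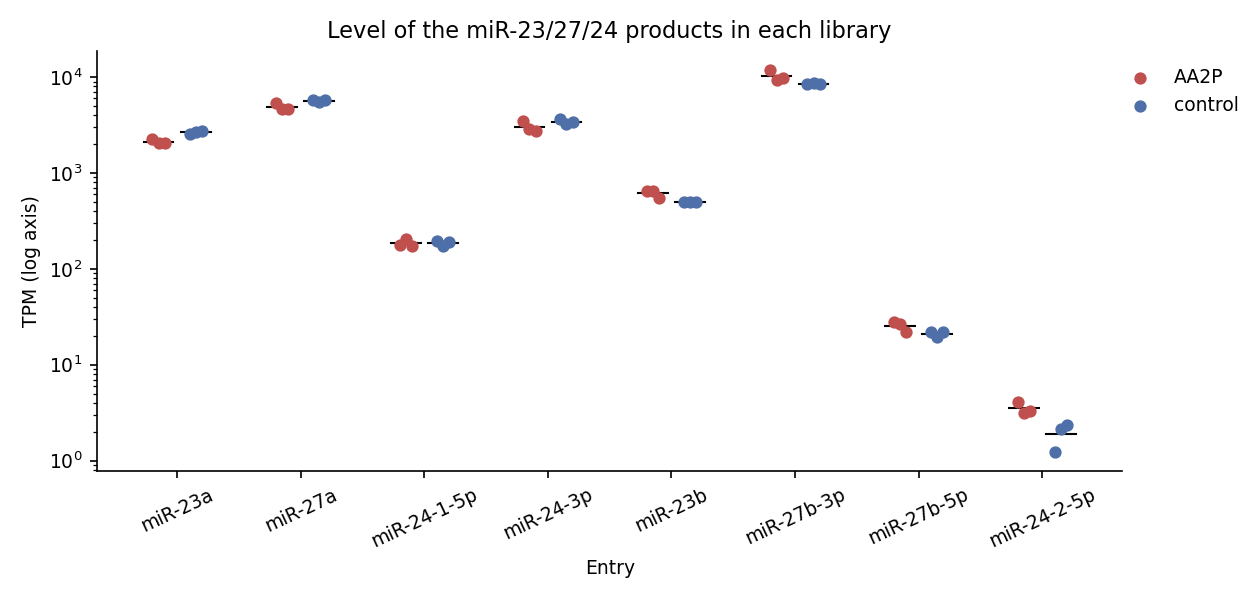
Level of each miR-23/27/24 product in TPM on a log axis, with 1 point per library (AA2P red, control blue) and a black line at the group mean. miR-27b-3p lies highest, near 10364 TPM in AA2P libraries, and miR-24-2-5p lowest, at 1.24 to 4.09 TPM over all libraries.

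The MIR23A cluster is described first. miR-23a, which shares its seed with miR-23b, stood at 2238, 2044 and 2071 TPM in AA2P libraries 1, 2 and 3, against 2575, 2689 and 2732 TPM in control libraries 1, 2 and 3. Every AA2P library lay under every control library, and the mean was 0.794 times that of the controls. The log2 fold change was -0.33 (SE 0.0667), and miR-23a passed in limma, a linear model fitted over all entries with pooled spread (adjusted p = 0.0156). It was the only 1 of the 8 products to pass, where 24.7% of all tested entries passed, 19.9% as higher and 4.85% as lower. The call ended without control replicate 2 (limma, adjusted p = 0.0558) and without control replicate 3 (adjusted p = 0.0713). It also ended with no filter on low values (adjusted p = 0.0616) and with the replicate number as a block (adjusted p = 0.0686), while the direction held in all 19 alternatives.

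miR-27a, the partner of miR-23a with another seed, stood at 5339, 4635 and 4640 TPM in AA2P libraries, against 5731, 5545 and 5815 TPM in control libraries. The groups did not overlap, as AA2P replicate 1, the highest of its group, was still under the lowest control. The log2 fold change was -0.23 (SE 0.0778) and did not pass (limma, adjusted p = 0.0789). miR-24-1-5p, the 5p arm of the hairpin next to miR-27a, stood at 177, 205 and 171 TPM in AA2P libraries and at 197, 172 and 190 TPM in control libraries. Its groups overlapped over nearly their whole range, with a log2 fold change of -0.02 and a 95% interval of -0.27 to 0.23 (limma, adjusted p = 0.897).

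miR-24-3p, the shared main product of the miR-24 hairpins, stood at 3445, 2874 and 2773 TPM in AA2P libraries and at 3619, 3251 and 3413 TPM in control libraries. AA2P replicate 1 lay within the control range and the other AA2P libraries under it. The log2 fold change was -0.18 (SE 0.102) and did not pass (limma, adjusted p = 0.226). It was -0.28 without AA2P replicate 1 (adjusted p = 0.0635) and -0.12 without AA2P replicate 3 (adjusted p = 0.437). Since reads of this miRNA carry no mark of their gene copy, its level cannot be assigned to a cluster.

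In the MIR23B cluster miR-23b stood at 654, 655 and 546 TPM in AA2P libraries, against 498, 493 and 492 TPM in control libraries. All AA2P libraries lay above all control libraries, which differed among themselves by only 3.24 TPM (SD). The log2 fold change of 0.32 (SE 0.0917) just missed the threshold (limma, adjusted p = 0.0533). It passed where AA2P replicate 3 was left out (0.40, adjusted p = 0.0217), where a mean of at least 10 TPM was required (adjusted p = 0.0420) and where known miRNAs alone were tested (adjusted p = 0.0338). miR-27b-3p, which shares its seed with miR-27a, stood at 11912, 9439 and 9742 TPM in AA2P libraries, against 8554, 8606 and 8451 TPM in control libraries. The groups did not overlap, and AA2P replicate 1 stood apart from the other AA2P libraries. Its log2 fold change of 0.27 (SE 0.0999) did not pass (limma, adjusted p = 0.0970), and without AA2P replicate 1 it was 0.17.

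The minor products of the MIR23B cluster lay on the same side. miR-27b-5p, the passenger arm of the miR-27b hairpin, stood at 27.9, 26.3 and 22.0 TPM in AA2P libraries and at 22.1, 19.4 and 21.9 TPM in control libraries. The groups overlapped at AA2P replicate 3, and the log2 fold change of 0.25 did not pass (limma, adjusted p = 0.179). miR-24-2-5p, the rarest product, stood at 4.09, 3.14 and 3.26 TPM in AA2P libraries, against 1.24, 2.11 and 2.37 TPM in control libraries. These values rest on 110, 113 and 106 reads in AA2P libraries and on 32, 68 and 72 reads in control libraries. Exact 95% Poisson intervals, which cover counting error only, ran from 2.59 to 4.93 TPM over the AA2P libraries and from 0.847 to 2.99 TPM over the control libraries. The mean was 1.83 times that of the controls and the log2 fold change 0.64 (SE 0.218), which did not pass (limma, adjusted p = 0.0788) although it did with known miRNAs alone (adjusted p = 0.00597).

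**Figure D2:**
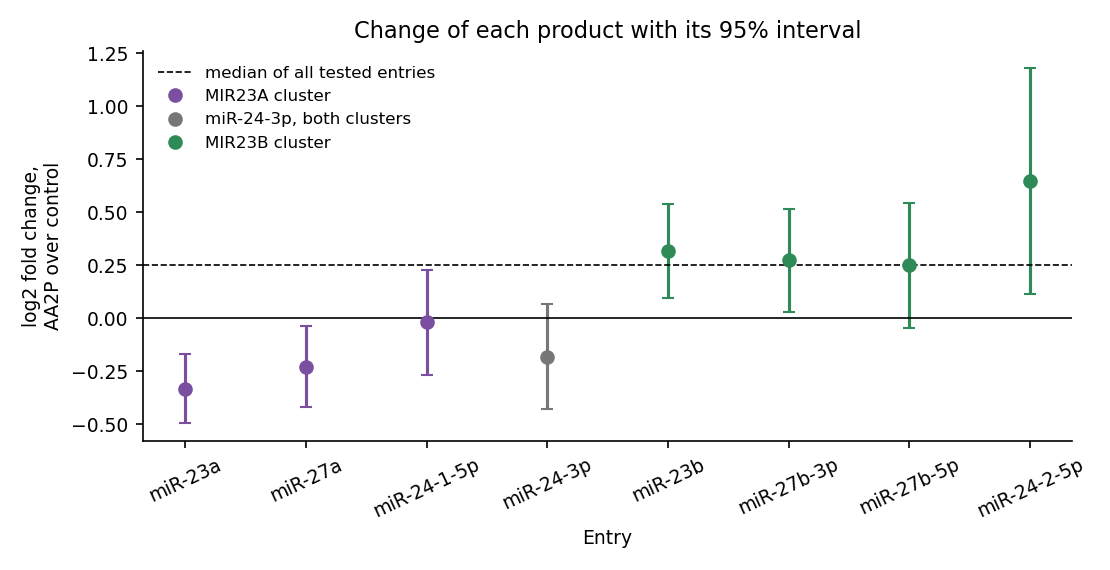
Log2 fold change of each product, AA2P over control, with its 95% interval from limma (n = 3 libraries per group); the dashed line is the median of all 433 tested entries, 0.25. The MIR23A cluster and miR-24-3p lie below 0 and the MIR23B cluster above it, at or above the dashed line, except that miR-24-1-5p, at -0.02, is close to 0.

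Among all tested entries the products took different places. In 60 of the 433 entries the log2 fold change was lower than that of miR-23a, in 79 lower than that of miR-27a and in 82 lower than that of miR-24-3p. miR-27b-5p lay exactly at the median of 0.25, miR-27b-3p and miR-23b lay 0.02 and 0.07 above it on the log2 scale, and miR-24-2-5p 0.40 above it. The groups did not overlap for 5 of the 8 products, 2 lower and 3 higher, where 49.7% of all tested entries did not overlap, 9.24% as lower and 40.4% as higher.

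Whether products of the MIR23B cluster count as higher depended on how libraries were scaled. Other scalings shifted the median of all tested entries by -0.18 to -0.26 on the log2 scale. Under trimmed-mean scaling miR-23b was at 0.04 and miR-27b-3p at -0.01 on the log2 scale, and with totals without miR-21-5p at 0.02 and -0.02. Under quantile normalization miR-23b was at -0.01 and miR-27b-3p at -0.08. None of these passed (limma, adjusted p = 0.613 to 0.961). miR-24-2-5p stayed above 0 under every scaling run, at 0.44 to 0.64. In the MIR23A cluster the same shift took values further below 0, and miR-23a passed as lower under all 5 other scalings, at -0.48 to -0.63 (limma, adjusted p = 0.00281 to 0.00689). miR-27a and miR-24-3p passed as lower under all of these but quantile normalization, at -0.42 to -0.52 for miR-27a and at -0.38 to -0.48 for miR-24-3p. Under quantile normalization they were at -0.09 and -0.24 and did not pass (adjusted p = 0.424 and 0.105). miR-24-1-5p was at -0.15 to -0.31 under these scalings and was called as lower where miR-21-5p was left out of the totals (limma, adjusted p = 0.0320). Of all 433 tested entries, 36 to 50 were called as lower under these 5 scalings. Measured from the median of all tested entries in the deposited TPM, miR-23a lay at -0.58, miR-27a at -0.48, miR-24-3p at -0.43 and miR-24-1-5p at -0.27 on the log2 scale.

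**Figure D3:**
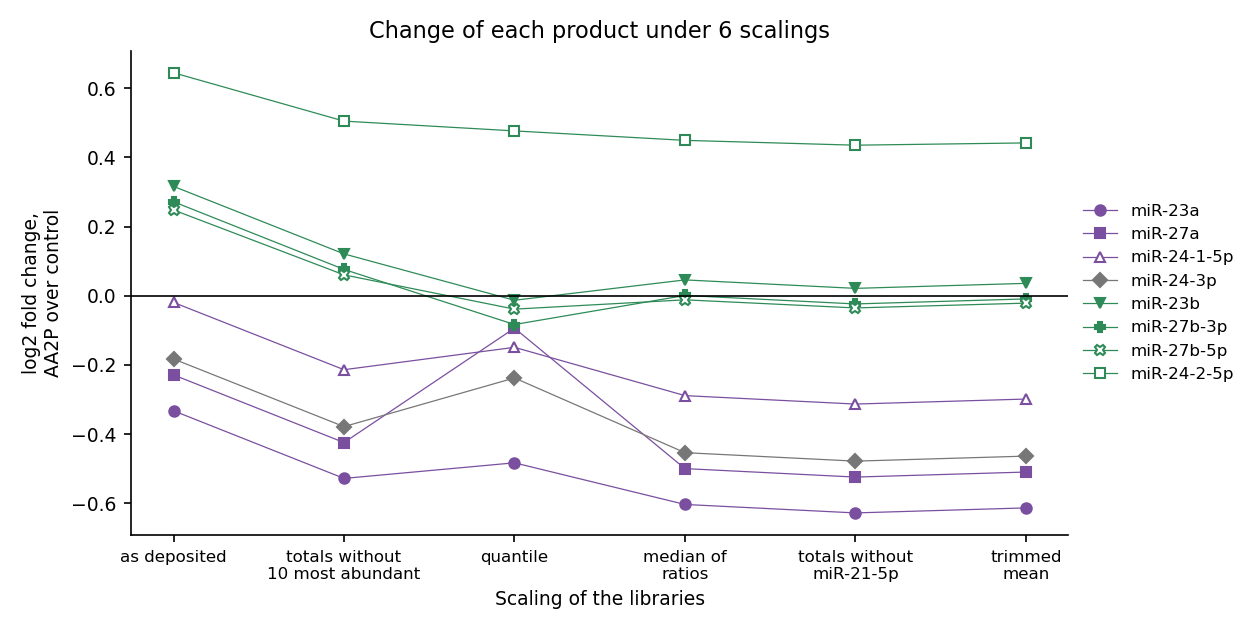
Log2 fold change of each product, AA2P over control, as deposited and under 5 other scalings of the libraries. miR-23a lies at -0.33 to -0.63 throughout, and miR-23b, miR-27b-3p and miR-27b-5p drop from about the median of all entries, 0.25, to near 0, crossing it under some scalings.

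A factor common to all entries of a library cancels in a plain ratio of 2 products within it, so the paralogues were compared directly. With the pseudocount of 1 TPM in the log2 ratios it cancels only in part for miR-24-2-5p, at 1.24 to 4.09 TPM. Quantile normalization applies no such common factor, and its values are given after the ratios. miR-23a exceeded miR-23b 3.42-, 3.12- and 3.79-fold in AA2P libraries, against 5.17-, 5.45- and 5.55-fold in control libraries. The log2 ratio was 1.78 ± 0.141 in AA2P libraries and 2.43 ± 0.0532 in control libraries (SD, n = 3 each), a difference of -0.65. The groups were far apart, and leaving out any 1 library moved the difference to between -0.58 and -0.72. miR-27a stood at 0.448, 0.491 and 0.476 times miR-27b-3p in AA2P libraries, against 0.670, 0.644 and 0.688 times in control libraries. The log2 ratio was -1.08 ± 0.0670 in AA2P libraries and -0.58 ± 0.0477 in control libraries (SD, n = 3 each), a difference of -0.50 that ranged from -0.46 to -0.53 without any 1 library.

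The 5p arms of miR-24 gave the ratio that separates the gene copies of this miRNA. miR-24-2-5p over miR-24-1-5p, here the MIR23B cluster over the MIR23A cluster, had a log2 ratio of -5.37 ± 0.257 in AA2P libraries and -6.03 ± 0.378 in control libraries (SD, n = 3 each), a difference of 0.66. The groups did not overlap, but control replicate 1 lay far under the other controls, and without it the difference was 0.45. With a pseudocount of 0.1 TPM and all libraries the difference was 0.90. With miR-24 copies assigned as in RefSeq, the shift was toward the MIR23B cluster in each of the 3 paralogue pairs, and with the human numbering the miR-24 ratio would point to the MIR23A cluster. Under quantile normalization the differences were -0.47 for miR-23a over miR-23b, -0.01 for miR-27a over miR-27b-3p and 0.63 for miR-24-2-5p over miR-24-1-5p, so the shift of the miR-27 pair was nearly absent there. For the 3 paralogue ratios in the deposited TPM, a two-sided exact permutation test gave p = 0.1 each, the smallest that 3 against 3 libraries allow. After Benjamini-Hochberg adjustment over the 10 ratios tested it was 0.2. The quantile-normalized differences were not tested.

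**Figure D4:**
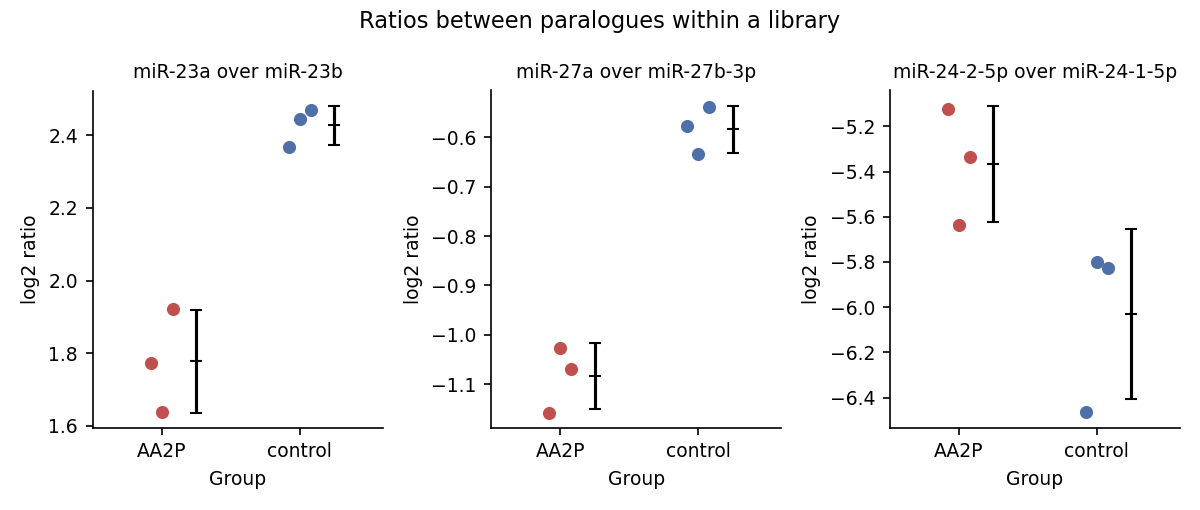
Log2 ratio between paralogues in each library, with group mean and SD beside the points (n = 3 each); each panel has its own axis. For miR-23a over miR-23b and miR-27a over miR-27b-3p the AA2P libraries lie below the controls, and for miR-24-2-5p over miR-24-1-5p, where the MIR23B cluster is on top, they lie above.

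To set these shifts against the spread of such ratios, limma was fitted to the log2 ratios of 60 pairs of known miRNAs that share a number and differ in letter. Both entries of a pair had a mean of at least 10 TPM, and 1 pair with identical values was left out. Same arms were paired, and a name without an arm was set against the most abundant arm of its relative, as in miR-130a over miR-130b-5p. This fit was chosen after seeing the data. It called 12 of the 60 pairs (20.0%), 6 in each direction. The earlier letter was on top in every pair, so the direction of a pair follows its naming. miR-23a over miR-23b passed (difference -0.65, SE 0.0867, adjusted p = 5.01e-05), and so did miR-27a over miR-27b-3p (difference -0.50, SE 0.0878, adjusted p = 5.93e-04). By p-value they ranked 4 and 6 of the 60. Both also passed without any 1 library, with adjusted p up to 0.00248 for miR-23a over miR-23b and up to 0.00636 for miR-27a over miR-27b-3p. Pairs share entries, so they are not independent. Because miR-23a and miR-23b, and miR-27a and miR-27b-3p, are near-identical, their levels also depend on how the authors assigned shared reads, which is not given in the sources used here.

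**Figure D5:**
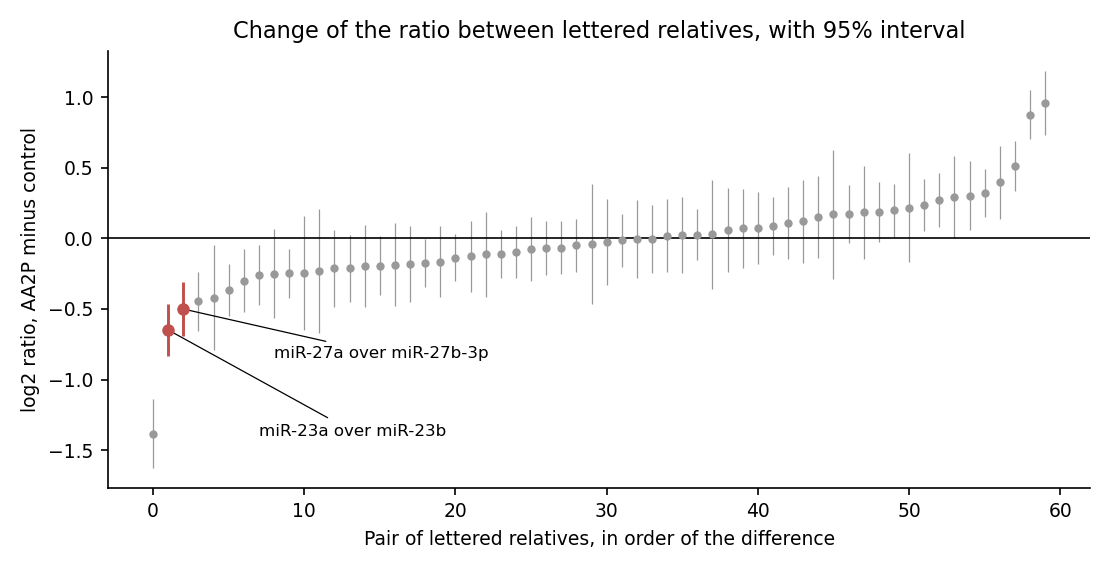
Change of the log2 ratio, AA2P minus control, for 60 pairs of lettered relatives in rising order, with 95% intervals from limma (n = 3 libraries per group). The earlier letter is on top in every pair, so the sign follows the naming. miR-23a over miR-23b at -0.65 and miR-27a over miR-27b-3p at -0.50 (red) lie next to the lowest pair, and pairs on the other side reach 0.96.

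Ratios of miR-23 to miR-27 within a cluster, and of miR-23a and miR-27a to miR-24-3p, which both clusters can give, were compared next. The log2 ratio of miR-23a over miR-27a was -1.20 ± 0.0482 in AA2P libraries and -1.10 ± 0.0551 in control libraries, a difference of -0.10 with groups that did not overlap (two-sided exact permutation test, p = 0.1). For miR-23b over miR-27b-3p it was -4.06 ± 0.187 in AA2P libraries and -4.11 ± 0.0142 in control libraries, with overlapping groups (exact permutation test, p = 1.0). For miR-27a over miR-24-3p it was 0.69 ± 0.0554 in AA2P libraries and 0.73 ± 0.0613 in control libraries, and the difference of -0.05 lay within the spread (exact permutation test, p = 0.4). For miR-23a over miR-24-3p the difference was -0.15 and the groups overlapped (exact permutation test, p = 0.2).

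Passenger arms were compared with main arms in the same way. For miR-27b the log2 ratio of 5p over 3p was -8.62 ± 0.157 in AA2P libraries and -8.59 ± 0.109 in control libraries (SD, n = 3 each). In a limma fit over 39 hairpins with both arms at a mean of at least 10 TPM the difference was -0.02 with a 95% interval of -0.24 to 0.19 (adjusted p = 0.877). That fit called 0 of the 39 hairpins, 0% of them, and 4 had an unadjusted p under 0.05. Without control replicate 2 it called 3 hairpins, and miR-27b was not among them (adjusted p = 0.730). miR-24-1-5p over miR-24-3p was -4.03 ± 0.238 in AA2P libraries and -4.19 ± 0.0365 in control libraries, with overlapping groups. miR-24-2-5p over miR-24-3p was -9.40 ± 0.0467 in AA2P libraries and -10.22 ± 0.376 in control libraries, with groups that did not overlap (two-sided exact permutation test, p = 0.1). That difference was 0.83, with 0.61 when control replicate 1 was left out and 1.06 with a pseudocount of 0.1 TPM. Because miR-24-3p can come from both clusters and each 5p arm from 1 gene copy, arm use and the balance of the copies cannot be told apart in the miR-24 ratios.

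The summed families differed in direction. The miR-23 family took 0.274% ± 0.0141 of the TPM in AA2P libraries and 0.316% ± 0.00775 in control libraries, and its groups did not overlap (two-sided exact permutation test, p = 0.1). Since miR-23a outnumbers miR-23b in every library, the sum followed miR-23a. The miR-27 family took 1.53% ± 0.175 in AA2P libraries and 1.43% ± 0.00738 in control libraries, where 1 AA2P library lay under all controls (exact permutation test, p = 0.5). The miR-24 family took 0.322% ± 0.0359 in AA2P libraries and 0.362% ± 0.0196 in control libraries (exact permutation test, p = 0.3). miR-23a and miR-27a together took 0.699% ± 0.0509 in AA2P libraries and 0.836% ± 0.0164 in control libraries, with groups that did not overlap (exact permutation test, p = 0.1). miR-23b and miR-27b-3p together took 1.10% ± 0.137 in AA2P libraries and 0.903% ± 0.00800 in control libraries, also without overlap (exact permutation test, p = 0.1).

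Likeness of profile was measured as the root-mean-square difference of log2 levels over the 6 libraries, each centred on its own mean, against 203 other known miRNAs averaging 10 TPM or more. The profile most like that of miR-23a was that of miR-27a, at 0.07. Next came miR-21-5p, a widely expressed miRNA, at 0.07, and miR-193a-5p at 0.10. miR-24-3p ranked 7, miR-24-1-5p 31, miR-27b-5p 85, miR-27b-3p 87 and miR-23b 108. For miR-27a the nearest was miR-24-3p and the next miR-23a. For miR-23b, miR-27b-5p ranked 3 and miR-27b-3p 32, while miR-23a ranked 170. These values describe 6 libraries that share the group difference and carry no test.

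Lists of miRNAs known for related roles moved both ways. Of 22 other miRNAs associated with blood vessel growth, 21 were tested, and 4 passed as higher and 5 as lower, where 19.9% and 4.85% of all tested entries did, with a median log2 fold change of 0.08 against 0.25 for all entries. The most abundant of these calls were miR-21-5p (-0.35), miR-10b (0.48), miR-221-3p (-1.10) and miR-222 (-1.43). Of 19 miRNAs that the transcription factor MYC is known to repress in human cells, as it does miR-23a and miR-23b, 18 were tested, and 5 passed as higher and 3 as lower, against the same 19.9% and 4.85%, with a median of 0.31. The most abundant of these calls were let-7f-5p (0.41), let-7g (0.43), miR-30c-5p (0.74) and miR-146a-5p (-1.24). Of 5 hypoxia-associated miRNAs, miR-107 (0.60) and miR-181b (1.09) passed as higher and miR-210 (-2.57) and miR-155-5p (-0.61) as lower, against the same shares of all entries, with a median of 0.25. The lists were chosen with earlier results of these data known, and they were compared with the other entries by no further test.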

How the data were processed

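The authors deposited 1 table of TPM for the 6 libraries, made from total RNA extracted with Trizol and sequenced on an Illumina NovaSeq instrument in a single lane, per the labels' protocols. Bowtie is named per the submitters' processing notes. Its version, the genome build, the miRNA release and the handling of shared reads were not given in the labels or the file. Depths come from the step shared by values under 5 TPM, all of which lay within 0.0051 TPM of whole reads, where rounding alone gives 26.3 to 36.7%. The values were tested as TPM.

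The 433 entries that reached 1 TPM in 3 or more libraries were tested as log2(TPM + 1) by limma 3.58.1 in R 4.3.3, with a mean-variance trend, two-sided, with Benjamini-Hochberg adjustment over all of them and calls under 0.05. On this scale the change of low entries is understated. Ratios also carry a pseudocount of 1 TPM in log2 form and none in linear form. Within groups, reads of library pairs differed with a chi-square per degree of freedom of at least 98.8, so none was taken for a repeat. The fit was tested on simulated data. Named entries were all 8 products, the 3 profiles most like miR-23a, miR-21-5p, marker miRNAs and at most 4 called members of each list by mean level; relatives by seed, also in that rule, were not analysed here. miR-181c and miR-181d-5p were added after values were seen. Members and lists were chosen with earlier results of these data known. Alternatives were other pseudocounts, filters, scalings, weights and trend, a replicate block, and leaving out each library.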

Additional observations from a re-analysis of the deposited data

How the results depend on the processing

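The count of calls among the 8 products was 1 as reported. It was 0 with no filter on low values and with the replicate number as a block. It was 2 with a mean of at least 10 TPM, where 7 of the products were tested, and 2 with array weights. It was 3 with known miRNAs only, trimmed-mean scaling, median-of-ratios scaling or totals without the 10 most abundant entries, and 4 with totals without miR-21-5p. Without 1 library it was 0 to 2. Over all 433 tested entries 107 were called (86 higher, 21 lower), 57 of 1645 with no filter and 63 with the replicate block. The same count was 96 of 255 with a mean of at least 10 TPM, 113 of 264 with known miRNAs only and 116 with array weights. It was 98 with median-of-ratios scaling and 91 with totals without the 10 most abundant entries. Without 1 library 62 to 98 were called, lowest without control replicate 3. Trimmed-mean scaling gave 48 higher and 50 lower, and totals without miR-21-5p 39 and 43. The block ended the call of miR-23a (limma, adjusted p = 0.0686) and left its log2 fold change at -0.33. The main fit did not pair same-numbered libraries, as the labels do not say that they belong together. Their deviations from the group means correlated at 0.29, 0.06 and 0.18, against -0.264 to 0.108 for libraries of different number. Every library but control replicate 2 correlated best with its own number, so these values do not exclude a pairing.

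Directions changed for products whose values the other scalings brought close to 0, and for miR-24-1-5p, which was close to 0 as deposited. The log2 fold change of miR-27b-5p was -0.0212, -0.0116, -0.0385 and -0.0351 under trimmed-mean, median-of-ratios, quantile and without-miR-21-5p scaling. That of miR-27b-3p was -0.00899, -0.0830 and -0.0235 under trimmed-mean, quantile and without-miR-21-5p scaling, and that of miR-23b -0.0129 under quantile normalization. That of miR-24-1-5p ran from -0.0979 to 0.0313 without 1 library, and was -0.149 to -0.313 under other scalings. The arm difference of miR-27b ran from -0.114 to 0.0302 without 1 library. The difference in summed share was 0.0184 points, and -0.773 points of a total without miR-21-5p. The cause was not tested. Under quantile normalization, added after seeing the data, the difference in the log2 ratio of miR-23a over miR-23b was -0.470 and that of miR-27a over miR-27b-3p -0.0104. The 3 paralogue ratios kept their direction in every alternative run and otherwise moved by less than 1 SD.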

Other observations

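The miRNA genes nearest to the MIR23A cluster in the RefSeq table, within 50 kb, are MIR181C and MIR181D, of the miR-181 family. miR-181d-5p stood at 125, 137 and 119 TPM in AA2P libraries, against 118, 97.3 and 112 TPM in control libraries. miR-181c stood at 2.87, 2.78 and 2.09 TPM in AA2P libraries, against 1.70, 1.89 and 1.88 TPM in control libraries. For both, all AA2P libraries lay above all control libraries, as for 40.4% of all tested entries, but neither passed (limma, log2 fold change 0.22 with adjusted p = 0.167 for miR-181d-5p and 0.34 with adjusted p = 0.200 for miR-181c). They were looked up after the values of the clusters were seen. The log2 fold change of miR-181d-5p lay under the median of all tested entries, 0.25. The difference between these genes and the MIR23A cluster was not tested.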
